A study of Mus musculus with 6 samples.

Results

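The COMMD family comprises 10 mouse genes, Commd1 to Commd10, whose transcripts were compared between embryonic stem cells with and without Sirt1. Members were selected on their annotated symbol, and each gene was read on its brightest probe set, so that the mean level over the 6 arrays chose the probe set. The family was proposed with results of the wild-type and knockout contrast already known, and its counts are therefore given as a description. All 10 genes were on the array, with 20 of its 45101 probe sets and 10 of 18193 named genes. The cells were R1 mouse embryonic stem cells of the strain (129X1 x 129S1)F1. They carried either both copies of Sirt1 (Sirt1+/+, 3 arrays) or neither (Sirt1-/-, 3 arrays). Sirt1 is a deacetylase of proteins that uses NAD. Both genotypes were kept in medium with 15% serum and 100 IU/ml leukaemia inhibitory factor, a cytokine that sustains self-renewal, on dishes coated with 0.1% gelatin. Each sample gave 100 ng of total RNA for 1 Affymetrix 3' expression array. The labels do not say whether the Sirt1-/- cells were 1 clone or whether samples of 1 genotype were grown separately. P-values therefore rest on a spread between samples that may be technical only, and an effect of losing Sirt1 cannot be told apart from anything else that differs between the 2 kinds of cell.

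COMMD proteins share a C-terminal COMM domain through which they bind one another. They assemble into a ring that, with the coiled-coil proteins Ccdc22 and Ccdc93, forms the CCC complex. The CCC complex joins the Retriever trimer of Vps35l, Vps26c and Vps29 on endosomes, and the whole assembly, called Commander, returns membrane proteins such as integrins and lipoprotein receptors to the cell surface in place of degradation in lysosomes. Commd1, the founding member, is also known for its role in copper export and for limiting NF-kB activity.

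Promoter windows are shown for the members with the largest and the smallest change in size, Commd7 and Commd4, and for those holding an E-box. RefSeq windows of 300 bases on GRCm38.p6, from 250 before to 50 after a gene's start, were searched for 7 members (8 windows, Commd1 having 2). No window was at hand for Commd2 or Commd5, and Commd10 was left out of the search. The motif and CG counts below do not cover these members. Motifs were searched on both strands by exact letters, and none of the matches overlapped another. The capitals mark these matches. In Commd7 they are the letters of a TATA box (TATAAA) on the opposite strand, at position -93 from the start. In Commd4 they are the CCAAT box (CCAAT) and the GC box (GGGCGG), both on the opposite strand, and an ETS-family motif (CCGGAAG).
Commd7, chr2:153632732-153633031, minus strand: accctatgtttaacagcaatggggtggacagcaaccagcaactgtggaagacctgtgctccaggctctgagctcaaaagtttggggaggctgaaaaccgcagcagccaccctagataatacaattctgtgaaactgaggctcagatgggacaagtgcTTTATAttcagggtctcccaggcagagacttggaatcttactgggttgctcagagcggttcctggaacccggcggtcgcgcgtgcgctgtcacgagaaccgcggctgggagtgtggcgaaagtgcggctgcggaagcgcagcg
Commd4, chr9:57158250-57158549, minus strand: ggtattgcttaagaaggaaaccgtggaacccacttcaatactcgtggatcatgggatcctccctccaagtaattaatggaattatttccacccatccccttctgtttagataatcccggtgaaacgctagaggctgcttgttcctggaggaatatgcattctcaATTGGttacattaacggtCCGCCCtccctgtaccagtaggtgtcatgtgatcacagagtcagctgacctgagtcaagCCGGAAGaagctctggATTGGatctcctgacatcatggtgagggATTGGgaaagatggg

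The palindromic E-box CACGTG, in capitals below, was found in the windows of Commd3, Commd8 and Commd9. It began at position -8 from the start of Commd3, -26 and 16 in Commd8 and -10 in Commd9.
Commd3, chr2:18672407-18672452, plus strand: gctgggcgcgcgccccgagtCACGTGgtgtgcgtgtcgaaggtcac
Commd8, chr5:72168190-72168235, minus strand: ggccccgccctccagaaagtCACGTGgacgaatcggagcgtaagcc
Commd8, chr5:72168148-72168193, minus strand: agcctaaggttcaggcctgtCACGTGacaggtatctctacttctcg
Commd9, chr2:101886232-101886277, plus strand: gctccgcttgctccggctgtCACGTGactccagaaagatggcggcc
The E-box was in 3 of the 8 member windows searched and in 7.15% of all 32851 windows of this length. The GC box was in 5 of 8 (35.7% of all windows), the CCAAT box in 2 (37.4%), the TATA box in 2 (13.6%), the ETS-family motif in 2 (8.86%) and the YY1 motif AAGATGGC in 1 (2.75%). The 8 member windows searched held 7 to 51 CG pairs, with a median of 15.5, against a median of 7 over all windows. A match describes the letters of the window and not binding.

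Levels are log2 values from robust multi-array averaging (RMA), so a difference of 1 is a doubling. The 6 arrays had medians of 4.51 to 4.57 over all probe sets, and the median SD of a gene within a genotype was 0.08 log2 units. Sirt1 itself read 10.12, 10.13 and 10.23 in Sirt1+/+ arrays against 8.02, 7.94 and 8.20 in Sirt1-/- arrays, which is -2.11 on the log2 scale (SE 0.08; adjusted p = 3.98e-05 in limma). Permuting the 6 arrays exactly and two-sided gave p = 0.1 for Sirt1, which 3 arrays against 3 cannot go below. Whether its probe set lies in the deleted part of Sirt1 is not stated in these sources. All 10 pluripotency markers had group means of at least 9.67 in both genotypes. The mean level over that list was 11.87 to 11.90 in wild type and 11.55 to 11.59 in knockout, and 6 of 10 markers fell, among them Nanog by 0.90. The list of 10 extraembryonic endoderm markers had mean levels of 5.44 to 5.48 in wild type and 4.69 to 4.77 in knockout, with 6 lower. The 10 fibroblast feeder markers had 4.34 to 4.39 in wild type and 4.18 to 4.31 in knockout, with 1 higher and 2 lower. Of all genes, 12.5% were called higher and 17.5% lower at the threshold given below. The share of feeder markers called in either direction, 30.0%, was that of all genes. The part of these markers in the results below was not tested. In bulk RNA, fewer cells of a type and less RNA per cell cannot be told apart.

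Most COMMD transcripts were modestly higher in the knockout. With p-values from limma adjusted over all genes (Benjamini and Hochberg, threshold 0.05), 7 of the 10 were higher, none was lower and 3 did not pass. At an unadjusted p under 0.05, 1 member was lower, Commd5. Of all 18193 genes, 12.5% were called higher, 17.5% lower and 30.0% in either direction. These shares stand beside the family's count for description, since the contrast was known when the family was proposed. The median log2 change of the members was 0.27, against -0.01 over all genes, and the members ranged from -0.24 (Commd5) to 0.78 (Commd7). For 7 members all knockout arrays lay above all wild-type arrays, which held for 19.1% of all genes. For 8 members the groups did not overlap in either direction, which held for 43.8% of all genes.

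**Figure D1:**
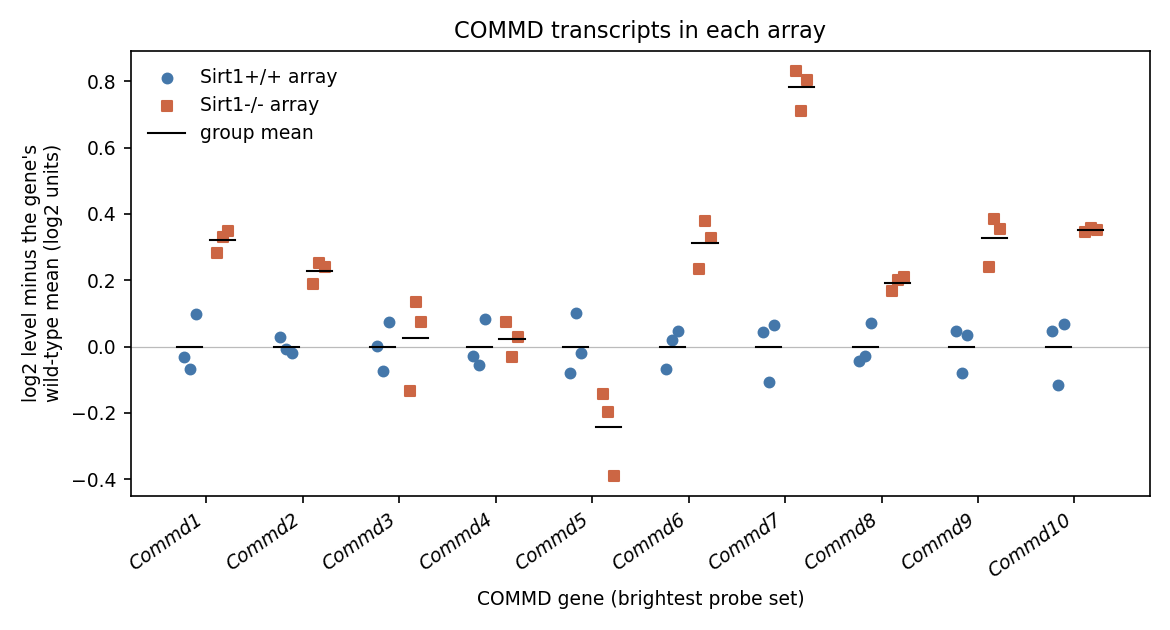
Level of each COMMD gene in each array as the log2 level minus that gene's wild-type mean, with blue circles for the 3 Sirt1+/+ arrays, orange squares for the 3 Sirt1-/- arrays and black lines for group means. The knockout arrays of Commd7 stand highest, those of Commd3 and Commd4 mix with wild type, and those of Commd5 lie below it.

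Commd7, a member linked to NF-kB control, changed most. It read 6.78, 6.63 and 6.80 in Sirt1+/+ arrays against 7.57, 7.45 and 7.54 in Sirt1-/- arrays. Every knockout array was far above every wild-type array relative to the spread within a genotype. The log2 change was 0.78 (SE 0.07), or 1.72-fold higher, with a 95% interval of 0.62 to 0.94 (adjusted p = 0.000378 in limma). Among all genes, 201 that were called higher had a larger change. Its second probe set, at a lower level, read 4.41, 4.57 and 4.50 in Sirt1+/+ arrays against 5.04, 4.82 and 5.56 in Sirt1-/- arrays, also without overlap. That probe set changed by 0.65 (SE 0.18; adjusted p = 0.0392 over all probe sets in limma), with a wide knockout spread (SD 0.38).

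A middle group of 4 members rose by about the same amount. Commd10, known from work on macrophage phagosomes, read 7.96, 7.79 and 7.98 in Sirt1+/+ arrays against 8.25, 8.27 and 8.26 in Sirt1-/- arrays. Its knockout arrays were nearly identical, and its log2 change was 0.35 (SE 0.06; adjusted p = 0.00608 in limma). Commd9, which takes part in recycling of Notch receptors, read 7.43, 7.30 and 7.41 in Sirt1+/+ arrays against 7.62, 7.77 and 7.74 in Sirt1-/- arrays, a log2 change of 0.33 (SE 0.06; adjusted p = 0.00884 in limma). Commd1 read 10.13, 10.10 and 10.27 in Sirt1+/+ arrays against 10.45, 10.50 and 10.52 in Sirt1-/- arrays. Its lowest knockout array stayed above its highest wild-type array, and the log2 change was 0.32 (SE 0.06; adjusted p = 0.00782 in limma). Commd6, a short member made up of little more than the COMM domain, read 7.23, 7.32 and 7.35 in Sirt1+/+ arrays against 7.53, 7.68 and 7.63 in Sirt1-/- arrays. The groups were again separate, with a log2 change of 0.31 (SE 0.06; adjusted p = 0.00870 in limma). These 4 changes differed from each other by less than their SEs and amount to 1.24-fold to 1.28-fold.

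Commd2 and Commd8 showed smaller rises. Commd2, a subunit of the COMMD ring, read 8.39, 8.35 and 8.34 in Sirt1+/+ arrays against 8.55, 8.61 and 8.60 in Sirt1-/- arrays, a log2 change of 0.23 (SE 0.05; adjusted p = 0.0104 in limma). Commd8, which pairs with Commd3 in an adaptor for chemoattractant receptors, read 8.68, 8.69 and 8.79 in Sirt1+/+ arrays against 8.89, 8.92 and 8.93 in Sirt1-/- arrays. Its groups were separate by a narrow margin, with a log2 change of 0.19 (SE 0.05; adjusted p = 0.0308 in limma), or 1.14-fold. The Commd8 call was lost in 5 of the 6 fits that each left out 1 array, all except the fit without wild-type replicate 3. Its log2 change there was 0.17 without wild-type replicate 1, 0.18 without wild-type replicate 2, 0.20 without knockout replicate 1, 0.19 without knockout replicate 2 and 0.18 without knockout replicate 3, and the adjusted p reached 0.108. With the replicate number as a block the Commd8 adjusted p was 0.0620.

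Commd3, Commd4 and Commd5 did not pass the test. Commd3, the partner of Commd8, read 8.20, 8.13 and 8.28 in Sirt1+/+ arrays against 8.07, 8.34 and 8.28 in Sirt1-/- arrays, with the lowest and the highest array both from the knockout. The 95% interval of its log2 change ran from -0.17 to 0.23 around 0.03 (adjusted p = 0.864 in limma). Commd4, another ring subunit, read 8.92, 8.89 and 9.03 in Sirt1+/+ arrays against 9.02, 8.91 and 8.97 in Sirt1-/- arrays, and the groups overlapped throughout. Its interval ran from -0.12 to 0.16 around 0.02 (adjusted p = 0.820 in limma), a range that leaves out changes as large as the estimates for the 4 members of the middle group. For Commd3 the interval likewise ended below those 4 estimates.

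Commd5, also known as the hypertension-related, calcium-regulated gene, was the one member with all knockout arrays below wild type. It read 7.45, 7.62 and 7.50 in Sirt1+/+ arrays against 7.38, 7.33 and 7.14 in Sirt1-/- arrays. The groups were separate by a narrow margin, and knockout replicate 3 was lowest. The log2 change of -0.24 (SE 0.08) did not pass (adjusted p = 0.0716 in limma). It passed with the dimmest 40% of genes removed (adjusted p = 0.0351) and with an intensity trend and robust variance (adjusted p = 0.0170), and its adjusted p ranged from 0.0170 to 0.183 over 14 alternatives. A second Commd5 probe set read 6.92, 6.97 and 7.02 in Sirt1+/+ arrays against 6.57, 6.68 and 6.70 in Sirt1-/- arrays. It fell by 0.32 (SE 0.06; adjusted p = 0.00986 over all probe sets in limma). The third had group means of 3.79 and 3.84, between the lower quartile of the arrays (3.16 to 3.24) and their medians (4.51 to 4.57). Its groups overlapped, with a log2 change of 0.05.

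Over the 20 probe sets of the family 10 were higher, 1 was lower and 9 did not pass, where 24.7% of all 34945 annotated probe sets were called in either direction. On this array the suffix _s_at marks probes shared with transcripts of other genes, and _x_at marks probes that may bind unrelated sequences. The brightest probe sets of Commd1 (1424122_s_at) and Commd10 (1456236_s_at) are of the first kind and that of Commd9 (1438644_x_at) of the second. The gene's own probe set rose by 0.30 for Commd1 (adjusted p = 0.0494 over all probe sets in limma) and by 0.25 for Commd10 (adjusted p = 0.0140). For Commd9 the own probe set read 6.59 in wild type and 6.74 in knockout with overlapping arrays, a log2 change of 0.15 (SE 0.09) that did not pass (adjusted p = 0.297 in limma). The third Commd9 probe set, also _x_at, had a log2 change of 0.26 (adjusted p = 0.0589 over all probe sets in limma). The Commd5 probe set that was called lower (1449694_s_at) is of the first kind. The other Commd5 probe sets, both _at, had log2 changes of -0.24 and 0.05 and did not pass. With _s_at and _x_at probe sets left out of the whole table, 6 members were higher, where 12.2% of all genes were, and the median of the family was 0.21. Probe sets also differed for Commd2, whose second one lay at 3.50 in wild type and 3.25 in knockout (log2 change -0.25, adjusted p = 0.0510), close to the lower quartile of the arrays. The second probe set of Commd8, at 7.39 in wild type and 7.43 in knockout, had a log2 change of 0.05 (adjusted p = 0.665 over all probe sets in limma). That of Commd3, at 7.56 in wild type and 7.52 in knockout, had -0.04 (adjusted p = 0.809). With all probe sets of a gene averaged, 5 members were higher, as were 2206 of all genes, and Commd2 was at -0.01 and Commd8 at 0.12.

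**Figure D2:**
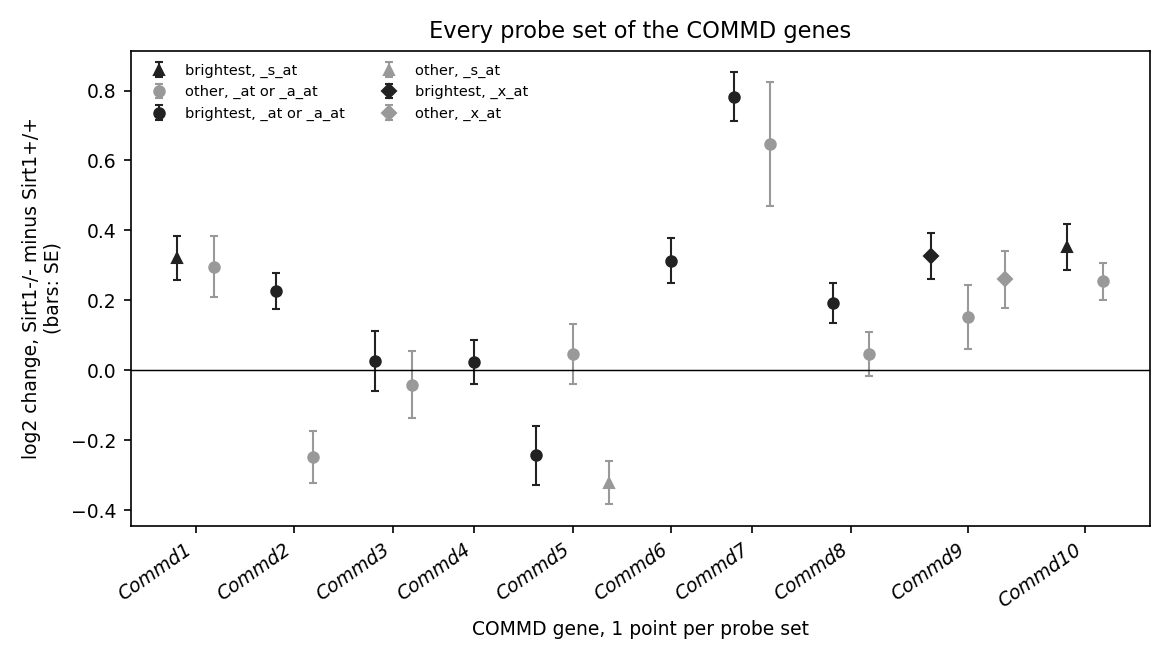
Log2 change (Sirt1-/- minus Sirt1+/+, error bars SE) of all 20 probe sets of the COMMD genes, with black for the brightest of a gene and grey for the others, circles for _at and _a_at, triangles for _s_at and diamonds for _x_at. Both probe sets of Commd7 and Commd10 lie above 0, while those of Commd2 lie on opposite sides of it.

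The core partners of the COMMD ring included genes called higher and genes called lower. All 8 genes of the CCC and Retriever list were measured, of which 2 rose, 2 fell and 4 did not pass, with a median log2 change of 0.09. That is 4 of 8 called, beside 30.0% of all genes. Ccdc93, which holds the COMMD ring in the CCC complex, read 7.98, 8.00 and 7.95 in Sirt1+/+ arrays against 8.44, 8.58 and 8.46 in Sirt1-/- arrays. It rose by 0.51 (SE 0.05; adjusted p = 0.000870 in limma). A dimmer Ccdc93 probe set was called higher, at 0.30, and those at 0.16 and 0.09, also dimmer, did not pass. Its partner Ccdc22 read 5.93, 6.09 and 5.82 in Sirt1+/+ arrays against 6.23, 5.81 and 6.05 in Sirt1-/- arrays, with overlapping groups (log2 change 0.08, adjusted p = 0.678 in limma). The other Ccdc22 probe set, with means of 5.67 in wild type and 6.10 in knockout, was called higher, at 0.43 (SE 0.11). Means on the brightest set were 5.95 and 6.03, and both are _x_at sets.

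Within Retriever, the scaffold and the arrestin-like subunit went opposite ways. Vps35l, the scaffold, read 8.82, 8.73 and 8.85 in Sirt1+/+ arrays against 8.29, 8.39 and 8.39 in Sirt1-/- arrays. It fell by 0.44 (SE 0.06; adjusted p = 0.00171 in limma), as did another of its probe sets, by 0.66. The 3 others, including a set brighter than the one that fell by 0.66, had log2 changes of 0.09 to 0.15 and did not pass. Vps26c read 8.61, 8.60 and 8.63 in Sirt1+/+ arrays against 8.82, 8.78 and 8.84 in Sirt1-/- arrays, a rise of 0.20 (SE 0.04; adjusted p = 0.0149 in limma). Vps29, which Retriever shares with retromer, read 11.13, 11.15 and 11.13 in Sirt1+/+ arrays against 11.27, 11.22 and 11.21 in Sirt1-/- arrays, a separate but small difference (log2 change 0.10, adjusted p = 0.153 in limma). Of its 4 other probe sets, 2 dimmer ones were called higher, at 1.08 and 0.58. Dennd10, a Commander-associated protein with a DENN domain, read 8.05, 8.17 and 8.04 in Sirt1+/+ arrays against 7.69, 7.78 and 7.81 in Sirt1-/- arrays, a fall of 0.33 (SE 0.06; adjusted p = 0.00759 in limma). Snx17, the adaptor that hands cargo to Retriever, had a log2 change of -0.09 (adjusted p = 0.187 in limma). Its relative Snx31 was dim, at 2.81 and 3.01, below the lower quartile of the arrays (adjusted p = 0.214 in limma). The Snx17 probe set and the brightest Vps29 probe set are _s_at sets.

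Around Commander, the WASH complex, which builds actin on endosomes, held 1 called gene, and retromer, the related recycling complex, held calls of both signs. Of 8 genes in the WASH list, only Washc1 passed in limma, and it rose by 0.29 (SE 0.05; adjusted p = 0.00677 in limma). That is 12.5% of the list, beside 30.0% of all genes, and the other Washc1 probe set did not pass. In the retromer list of 11 genes 3 rose and 3 fell (54.5%, beside 30.0% of all genes), with a median log2 change of -0.03. The scaffold Vps35 rose from 11.16 ± 0.06 to 11.47 ± 0.01 (SD, n = 3 each), by 0.32, and Vps26b rose by 0.31, with its 2 other probe sets not past the threshold. Vps26a fell by 0.21, and Tbc1d5, a GTPase-activating protein for Rab7, fell by 0.35, with its 3 other probe sets, all dimmer, not past the threshold. The limma adjusted p of these 4 retromer genes lay between 0.00417 for Vps35 and 0.0276 for Tbc1d5. The retromer count of 6 was 3 without wild-type replicate 1, wild-type replicate 2, knockout replicate 1, knockout replicate 2 or knockout replicate 3, and 2 with the replicate number as a block. Vps35 is a gene of chromosome 8, of whose 932 genes 33.6% were called higher, beside 12.5% of all genes. No COMMD gene lies on that chromosome, and the part of chromosomal position in these changes was not tested.

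Cargo genes of the recycling route likewise held calls of both signs. Of 17 listed receptors and transporters 16 were measured, of which 3 rose and 6 fell (56.2%, beside 30.0% of all genes), with a median log2 change of -0.09. Vldlr, a lipoprotein receptor, rose from 6.21 ± 0.11 to 7.63 ± 0.12 (SD, n = 3 each), by 1.42. The Vldlr value is from an _x_at set. Its other probe sets had log2 changes of 0.32 to 1.70, with that at 0.41 not past the threshold. Notch2 fell by 0.69, as did the copper ATPase Atp7b, and the ion cotransporter Slc12a2 fell by 0.68. The limma adjusted p of these 4 genes was at most 0.00482, the value for Atp7b. The dimmer probe sets of Notch2 (1) and Atp7b (2) did not pass. Among 10 genes of copper handling 3 rose and 3 fell (60.0%, beside the same 30.0%), with a median of -0.03. The metallothioneins Mt2 and Mt1 fell by 0.64 and 0.30, and Ccs, the copper chaperone of superoxide dismutase, fell by 0.41. The copper importer Slc31a1 rose by 0.32, and both of its probe sets were called. The Mt1 value is from an _s_at set, and a dimmer Mt1 probe set (log2 change -0.03) did not pass. The limma adjusted p of these 4 copper genes was at most 0.00885.

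Genes tied to Commd1 in ubiquitin, NF-kB and hypoxia signalling formed the last list. Of its 15 genes 14 were measured, of which 1 rose and 2 fell (21.4%, beside 30.0% of all genes), with a median log2 change of 0.00. Hif1a, the hypoxia factor whose activity Commd1 limits, rose from 10.65 ± 0.01 to 10.97 ± 0.04 (SD, n = 3 each), by 0.32 (adjusted p = 0.00275 in limma). The NF-kB inhibitor Nfkbia and the ubiquitin ligase scaffold Cul2 fell by 0.23 and 0.20 (adjusted p = 0.0139 and 0.0193 in limma). The count of called genes in this list was 1 without knockout replicate 2. All 4 other Nfkbia probe sets had negative log2 changes, -0.09 to -0.26, and 1 of them was called. The dimmer Cul2 probe set had a log2 change of 0.03 with overlapping arrays (adjusted p = 0.815 over all probe sets in limma). The NF-kB subunit Rela, a direct target of Commd1, had a log2 change of -0.08 (adjusted p = 0.453 in limma).

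**Figure D3:**
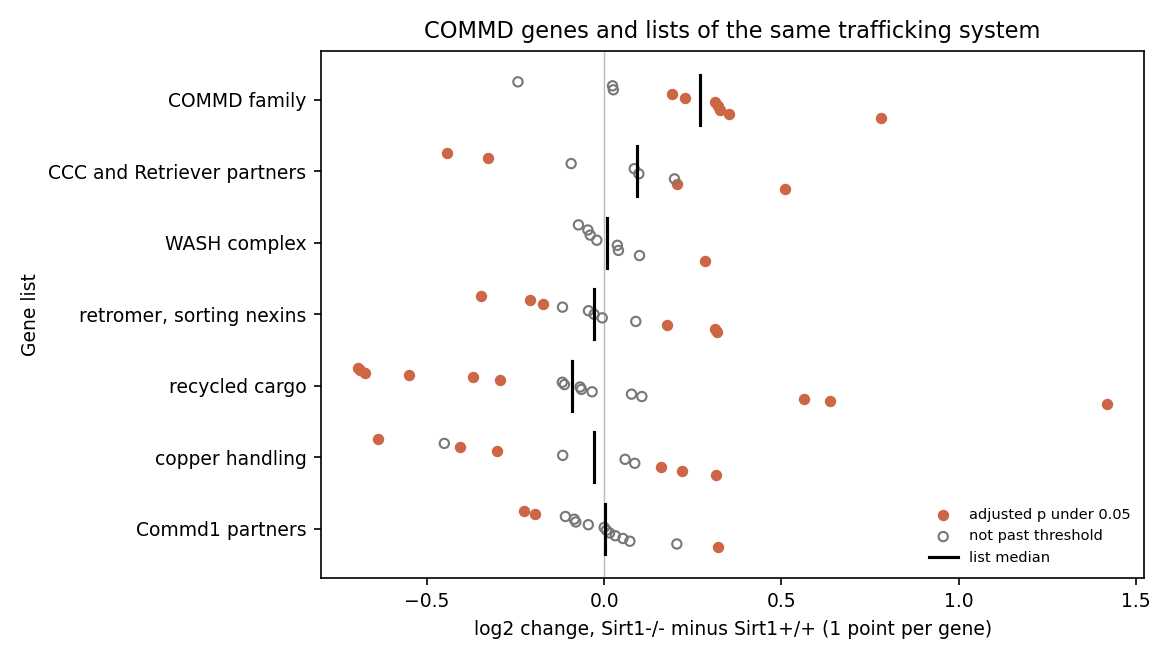
Log2 change (Sirt1-/- minus Sirt1+/+) of each COMMD gene and of each measured gene in 6 related lists, filled where the adjusted p was under 0.05, with a black line at each list's median. The COMMD median lies at 0.27, and the medians of the 6 lists lie between -0.09 and 0.09.

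The 10 genes are spread over 8 chromosomes, and their neighbours moved in both directions. On the reference annotation the 5 nearest measured genes on each side gave 100 neighbours, of which 11 were higher and 20 lower, or 31.0% in all beside 30.0% of all genes. Their median log2 change was -0.03. The log2 changes of Commd6, Commd7 and Commd9 lay above those of all their own 10 neighbours, some of which fell by more. Around Commd7 the nearest genes Nol4l and Dnmt3b, a DNA methyltransferase, fell by 0.80 and 0.39. Around Commd6 the neighbours ranged from -1.31 to 0.06, with 3 lower, and Commd6 lay at 0.31. Beside Commd9, Prr5l and Ldlrad3 fell by 0.44 and 0.34, and beside Commd8, Atp10d fell by 0.39.

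Other members had a nearest neighbour that moved with them or alone. Wwtr1, the transcriptional coactivator Taz, rose by 0.33 beside Commd2. The Polycomb gene Bmi1 rose by 0.70 beside Commd3, which did not pass the test, and 1700017B05Rik rose by 0.23 beside Commd4. The zinc finger gene Zfp251 fell by 0.47 beside Commd5. The limma adjusted p of the 9 nearest neighbours that were called lay between 0.00105 for Dnmt3b and 0.0387 for 1700017B05Rik. The nearest neighbours of Commd1, Commd6 and Commd10 did not pass. Among their 10 neighbours, Commd2 and Commd10 each had 3 higher and 1 lower, beside 12.5% and 17.5% of all genes. The median log2 changes of these neighbours were 0.12 for Commd2 and 0.11 for Commd10. Near Commd10, which rose by 0.35, Atg12 rose by 0.39 and Cdo1 fell by 0.85.

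**Figure D4:**
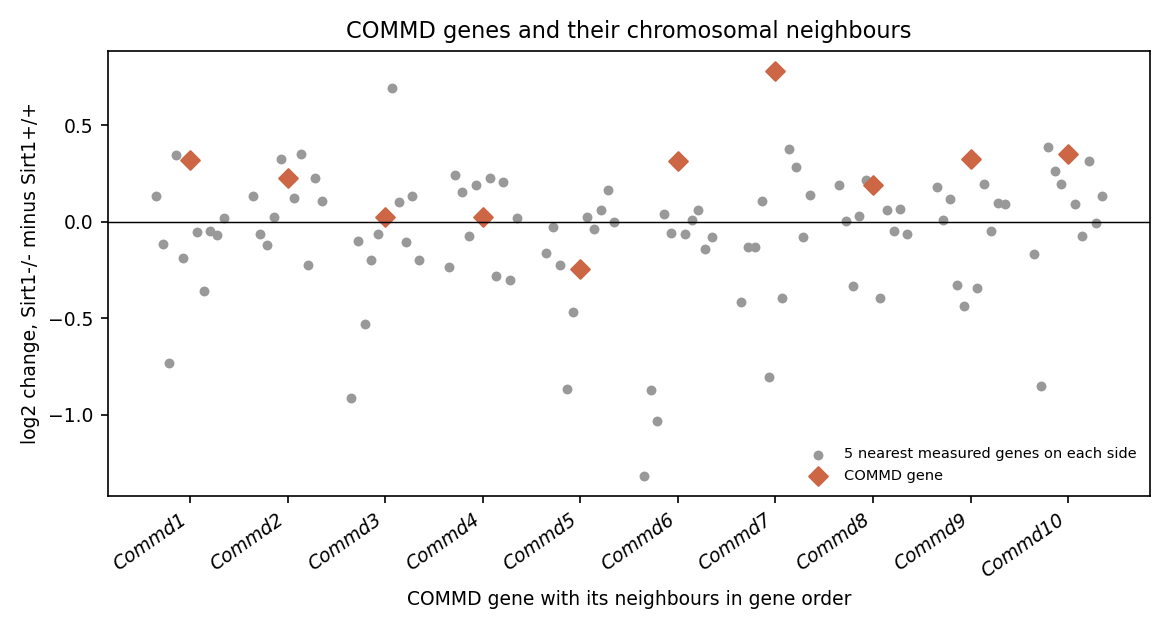
Log2 change (Sirt1-/- minus Sirt1+/+) of each COMMD gene (orange diamonds) and of its 5 nearest measured genes on each side (grey points, in gene order from left to right). Commd6, Commd7 and Commd9 stand above all of their own neighbours, which scatter on both sides of 0.

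The profile of Commd7 over the 6 arrays was most like those of Nudt16l1, R3hcc1 and Arpc4, a subunit of the actin-nucleating Arp2/3 complex. Pearson's r was at least 0.999 for the 3 genes over 6 arrays, among 9095 genes with a mean above the median of all genes. They rose by 0.61, 0.49 and 0.22. The points share 2 genotypes and the same arrays, and 1235 of the 9095 genes had an r above 0.95. No member fell past the threshold, so no such profile was sought for a fall.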

How the data were processed

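Total RNA from 3 Sirt1+/+ and 3 Sirt1-/- samples was measured on 1 array each, grouped by genotype as in the labels. Per the submitters' processing notes, the authors used RMA and Partek 6.5. The deposited table holds log2 levels, a scale read from the range of its values, and further settings are not stated in these sources. RMA sets arrays to a common distribution, so a shift shared by most genes would be removed.

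The 64 control probe sets were left out, as were 932 probe sets annotated to several genes and 9160 without a gene here. The other 34945 gave 18193 genes, for each of which the probe set with the highest mean was kept, dim or not. The genotypes were compared by two-sided moderated tests (limma 3.58.1, run under R 4.3.3, with 4 residual degrees of freedom before moderation). P-values were adjusted over all genes by Benjamini and Hochberg at 0.05. Probe sets were fitted separately and adjusted over all 34945. Listed symbols were matched by symbol or Entrez identifier, and 18031 genes matched the RefSeq annotation of GRCm38.p6, used for chromosomes and gene order. The procedure was tested on simulated data, where recovery was required only for changes larger than that of any COMMD gene. The number of arrays limits the precision.

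The members and lists were chosen with earlier results of these data known. Named genes were the members, Sirt1, the CCC and Retriever list, from each other list the up to 4 called genes of largest change without overlap, called nearest neighbours, and the 3 profiles most like the member with the largest rise. Nanog and Rela were added once values were known. The alternatives were repeated quantile normalisation, centring on array medians, removal of the dimmest 40% of genes, averaged probe sets, an intensity trend with robust variance, a block for the replicate number, leaving out each array, an adjusted p under 0.01 and, added after the data were seen, removal of _s_at and _x_at probe sets.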

Additional observations from a re-analysis of the deposited data

How the results depend on the processing

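Commd1, Commd6, Commd7 and Commd10 were called higher under all 14 alternatives. The count of higher members was 5 to 7, and 6 to 7 with 1 array left out. The count of all genes called higher also moved with the setting. It ran from 1347 at an adjusted p under 0.01 to 2722 with an intensity trend and robust variance. With 1 array left out it was 1656 to 2009. The count of lower members was 1 with the dimmest 40% of genes removed or with an intensity trend and robust variance, where Commd5 passed at -0.24. The family median was 0.18 with probe sets averaged and 0.21 without _s_at and _x_at probe sets. Averaging also put Commd2 at -0.0106, Commd3 at -0.00812 and Commd8 at 0.12 (adjusted p = 0.132 in limma), where each gene's other probe set enters the mean. Without _s_at and _x_at probe sets Commd9 was at 0.15, and 3 copper genes were called. At an adjusted p under 0.01, Commd2 (0.23) and Commd8 (0.19) were lost, 1347 genes were higher and 2009 lower, and the retromer and Commd1 partner lists had 2 and 1 called. With 1 array left out, Commd8 ranged from 0.17 to 0.23, Commd3 from -0.0289 without knockout replicate 2 to 0.105 (-0.0112 without wild-type replicate 2), Commd4 from -0.00508 without wild-type replicate 2 to 0.0655 (-0.00183 without knockout replicate 1), the retromer count from 3 to 4 and the Commd1 partner count from 1 to 3. Like-numbered arrays deviated from their group means with correlations over genes of 0.05, -0.09 and 0.20, so the numbers were not taken to pair samples. With the replicate block Commd8 (0.19) was lost, and 6 members were higher, as were 1908 of all genes. The retromer and Commd1 partner lists then had 2 and 1 called. Other causes of these differences were not tested. Signal near the lower quartile limits the dim probe set of Commd2, and signal below the array medians limits that of Commd5.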
